A study of Mus musculus with 9 samples.

Results

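Cathepsins are the acid proteases of the lysosome, and cystatin C, the product of Cst3, is a secreted inhibitor of those that use a cysteine for catalysis. The genes described here were chosen by name: 9 cathepsins (Ctsa, Ctsb, Ctsc, Ctsd, Ctsh, Ctsk, Ctsl, Ctso and Ctsz) and Cst3, which are 10 of the 24186 genes in the count table. All 10 were found, each under 1 identifier, and all 10 passed the filter on low counts. The RNA came from stromal cells flushed from the bone marrow of adult mice (strain C57Bl/6). The mice were transgenic for irtTA-GBD*-TAg, which makes large T antigen when dexamethasone and doxycycline are present. The cells had been grown with both drugs, cloned by limiting dilution or single-cell sorting, and kept without the drugs for 3 days before RNA was taken. All 3 groups share this background, so none of them is a primary cell. The untreated adipogenic group holds libraries 4, 5 and 6 of progenitors with adipogenic potential. The IFNγ group holds adipogenic libraries 4, 5 and 6 after 3 days with 10 ng/ml interferon gamma, and the osteogenic group holds libraries 4, 5 and 6 of untreated progenitors with osteogenic potential. The sources call the libraries biological replicates but do not say whether these are clones, cultures or animals, so each p-value reflects no more than the scatter among these libraries, which may be technical.

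Cathepsins are made as inactive precursors that carry mannose 6-phosphate, travel to the lysosome and become active in its acid interior. Transcription of many lysosomal genes is raised by TFEB and related factors, which bind promoter elements built around CACGTG. In bone, cathepsin K is best known as the collagen-degrading enzyme of osteoclasts, while interferon gamma is known in antigen-presenting cells for inducing cathepsin S and the MHC class II machinery it serves.

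Poly(A) RNA was sequenced as single 75-base reads, and the 9 libraries held between 27440089 and 39251602 gene counts. The treatment and the identities were visible in genes outside the family. All 7 of the interferon response genes examined rose with IFNγ, including Irf1 from 53.6 to 790.5 CPM (counts scaled to a common library total, as described under the processing), and Sp7, Alpl and Runx2, which mark osteoblast-lineage cells, were higher in the osteogenic group. Of the adipogenic markers, Lpl was lower in osteogenic cells, and Pparg averaged 36.0 CPM in untreated adipogenic and 9.19 CPM in osteogenic libraries without passing the test. Against untreated cells, Lpl was called in 1 of the 6 fits that left out 1 library (without adipogenic replicate 5), Runx2 also in that one alone, Alpl in 5 (not without osteogenic replicate 4) and Sp7 in all 6. The mature fat cell genes Adipoq and Plin1 had 14 and 4 counts in all 9 libraries together. Of the 12 stromal markers, 10 averaged at least 1 CPM in each group, while Thy1 had 2 counts in all and Lepr stayed under 0.5 CPM in every library.

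The promoter sequences that bear on lysosomal control came from RefSeq for build GRCm38.p6, where 8 of the 10 genes had a window of 250 bases before a transcription start. Ctsb and Ctsh had none. The 8 genes had 9 windows, because Ctsa had a second start. Below, a gene counts once if any of its windows held a motif, whereas the share over all windows is per window. The core CACGTG, which reads the same on both strands, was in the windows of Ctsa, Ctsd and Ctsl, 3 of the 8 genes, against 6.02% of all 32851 windows. Its longer form TCACGTGA, which contains the core, was in those of Ctsa and Ctsd, against 0.785% of all windows. That form with a further G before it and a C after it was in none of the 8 and in 0.240% of all windows. The stretches of 30 bases around each core are shown because the elements bound by TFEB and related factors are built around it, with the core in capitals:
Ctsd, chr7:142387908-142387937, minus strand: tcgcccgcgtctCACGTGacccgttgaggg
Ctsd, chr7:142388048-142388077, minus strand: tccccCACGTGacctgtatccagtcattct
Ctsa, chr2:164833743-164833772, plus strand: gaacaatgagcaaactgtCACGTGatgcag
Ctsl, chr13:64370739-64370768, minus strand: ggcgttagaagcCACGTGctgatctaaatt
Ctsf, chr19:4855074-4855103, plus strand: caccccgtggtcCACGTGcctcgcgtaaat
The core begins 98 and 245 bases before the RefSeq start of Ctsd, 12 before the second RefSeq start of Ctsa, 236 before that of Ctsl and 79 before that of Ctsf, a cathepsin outside the chosen 10. In the GENCODE M21 annotation of the same build, the first Ctsd stretch and the Ctsa stretch lie in noncoding exon sequence of their own genes, and 15 of the 30 bases of the Ctsl stretch do. The second Ctsd stretch and the Ctsf stretch lie upstream of the annotated gene. A match of letters is a description and not a measured binding site, and no binding was measured.

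For interferon gamma, the motif searched on both strands was the element of the interferon regulatory factors, which is GAAA, any 2 bases and GAAA again. It was in the window of none of the 8 genes, against 2.98% of all windows. It was present once in the window of Ctss, the interferon-inducible cathepsin, 21 bases before its start. The whole window is printed because Ctss had the largest fitted difference with IFNγ of any cathepsin tested. It lies outside every annotated exon of Ctss, and the element is in capitals:
Ctss, chr3:95526536-95526785, plus strand: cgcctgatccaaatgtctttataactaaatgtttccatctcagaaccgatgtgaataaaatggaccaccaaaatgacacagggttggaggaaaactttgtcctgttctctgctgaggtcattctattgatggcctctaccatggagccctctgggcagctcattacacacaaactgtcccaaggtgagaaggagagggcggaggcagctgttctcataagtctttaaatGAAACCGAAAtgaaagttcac

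The 10 genes differed widely in abundance. To compare genes with each other, levels were divided by exonic length (CPM per kb). Ctsd, the main aspartic protease of the lysosome, had the highest mean in each group, at 737 ± 182 CPM per kb in untreated adipogenic, 557 ± 128 in IFNγ-treated and 441 ± 21.3 in osteogenic cells (SD, n = 3). Cst3 was second in each group, with means of 353, 528 and 259 CPM per kb. In the IFNγ group the libraries of Ctsd and Cst3 overlapped, whereas in both other groups every Ctsd library was above every Cst3 library. Ctsl, Ctsb, Ctsz and Ctsa followed in that order in both adipogenic groups, and the libraries of each overlapped with those of its neighbour in the order. In osteogenic cells Ctsz ranked above Ctsb, and the libraries of these neighbours did not overlap.

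Below these came Ctsh at 19.9, 16.1 and 7.31 CPM per kb, Ctso at 5.53, 6.72 and 5.19, Ctsk at 4.30, 3.61 and 4.50, and Ctsc at 0.721, 0.770 and 0.542, each in untreated adipogenic, IFNγ-treated and osteogenic cells. Ctsk overlapped with both Ctso and Ctsc in the adipogenic groups. Ctsd, Ctsb, Ctsl and Ctsz together made up between 87.8% and 93.0% of the summed level of the 9 cathepsins in every library. The 10 genes together took 0.285% to 0.596% of the counts of a library. The sum of the 9 cathepsins was 1918, 1706 and 1334 CPM per kb in untreated adipogenic libraries 4, 5 and 6, 1836, 1501 and 1112 in the same numbers with IFNγ, and 979.7, 1155 and 1057 in the osteogenic libraries. All 3 osteogenic sums were below all 3 untreated adipogenic sums, while with IFNγ 1 library lay in the osteogenic range. In bulk RNA, fewer cells of a type and less RNA per cell cannot be told apart.

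**Figure D1:**
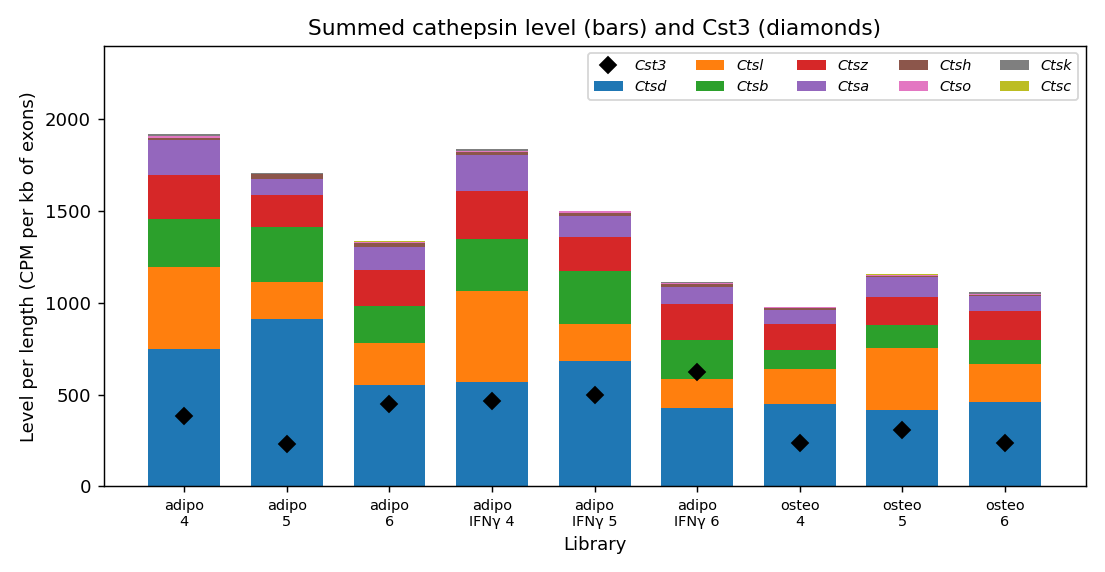
Summed level of the 9 cathepsins in each of the 9 libraries (stacked bars, CPM per kb of exons, 1 colour per gene) with Cst3 on the same axis (diamonds). The bars reach 1334 to 1918 in the untreated adipogenic libraries and 979.7 to 1155 in the osteogenic ones, and Ctsd is the largest segment by its group mean in each group.

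Against untreated adipogenic cells, osteogenic progenitors had lower Ctsb and Ctsh, both cysteine cathepsins, and no member was higher. Ctsb was 2.13-fold and Ctsh 2.72-fold lower. These 2 of 10 genes passed edgeR's quasi-likelihood test at a Benjamini-Hochberg adjusted p under 0.05, where 3.19% of the 15098 genes tested were called lower. The median log2 fold change of the 10 was -0.44, and that of all genes tested was -0.02. In 4 of the 10 genes, Ctsb, Ctsd, Ctsh and Ctsz, all osteogenic libraries were below all untreated adipogenic ones, a pattern that 15.9% of all genes showed. Adipogenic or osteogenic potential and the clones that carry it cannot be told apart in this design.

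**Figure D2:**
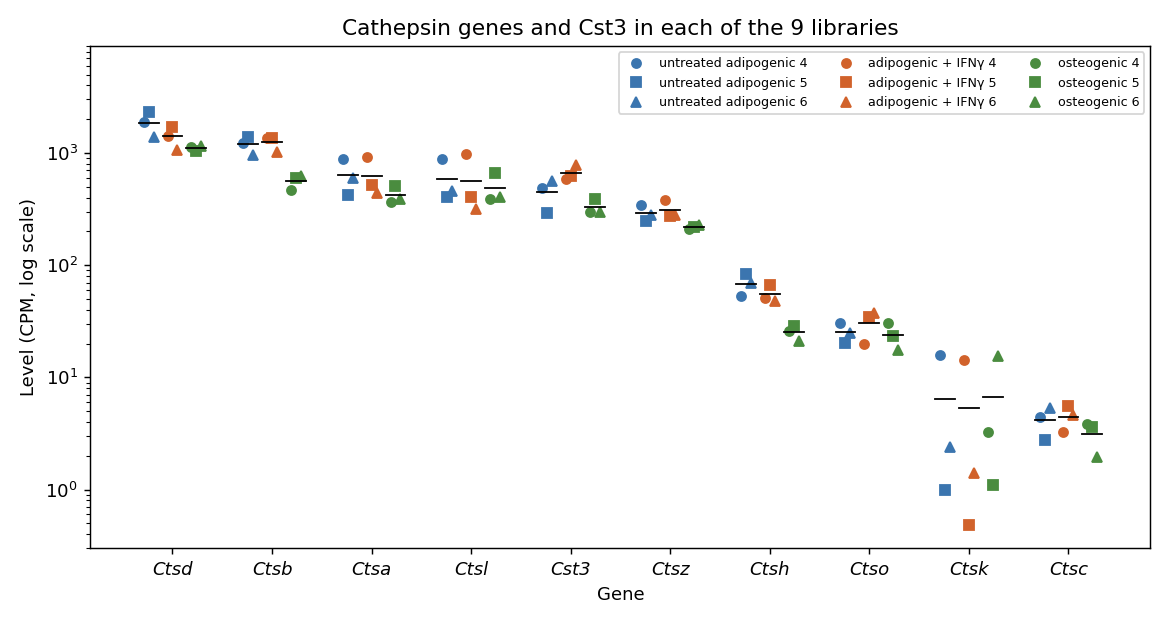
Level of each gene in each library (points, CPM, log axis), with groups by colour and library numbers by symbol. The osteogenic points of Ctsb lie at 470 to 623 CPM, below the untreated adipogenic range of 966 to 1402, and Ctsk spreads from 0.996 to 15.7 CPM within the untreated adipogenic group alone.

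Ctsb encodes cathepsin B, an abundant enzyme that cuts both within proteins and from their carboxyl end. It measured 1231, 1402 and 966 CPM in untreated adipogenic libraries 4, 5 and 6, 1355, 1369 and 1015 CPM with IFNγ, and 470, 593 and 623 CPM in the osteogenic libraries. The osteogenic libraries were the lowest 3 of the 9, and both adipogenic groups covered nearly the same range. The log2 fold change of osteogenic against untreated adipogenic cells was -1.09 ± 0.21 (SE; edgeR adjusted p = 0.0258). This call was lost without adipogenic replicate 4 (adjusted p = 0.0632) or 5 (0.0622) and without osteogenic replicate 4 (0.103), 5 (0.0871) or 6 (0.0755).

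Ctsh encodes cathepsin H, an aminopeptidase of the same papain-like family. Its values were 53.3, 83.0 and 69.3 CPM in untreated adipogenic libraries, 51.5, 66.6 and 48.3 CPM with IFNγ, and 26.0, 28.8 and 21.0 CPM in osteogenic ones. No osteogenic library reached 30 CPM and no adipogenic library was under 48 CPM. The log2 fold change was -1.44 ± 0.21 (edgeR adjusted p = 0.0120), and the call was lost without osteogenic replicate 4 (adjusted p = 0.0607) or 6 (0.0501).

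Ctsd, cathepsin D, measured 1887, 2300 and 1385 CPM in untreated adipogenic and 1124, 1051 and 1156 CPM in osteogenic libraries. The groups did not overlap, and the osteogenic libraries lay close together, with a highest value 1.10 times the lowest against 1.66 times in the untreated adipogenic group. The log2 fold change was -0.74 ± 0.24 and was not called by edgeR (adjusted p = 0.112), although DESeq2 called it (adjusted p = 0.0206). Ctsz, cathepsin Z, a carboxypeptidase, measured 346, 250.1 and 282 CPM against 208, 219.5 and 227 CPM in osteogenic libraries. Those groups did not overlap either, with a log2 fold change of -0.43 ± 0.17 (edgeR adjusted p = 0.190).

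Ctsa encodes cathepsin A, a serine carboxypeptidase that also protects lysosomal neuraminidase and β-galactosidase. It measured 879, 426 and 596 CPM in untreated adipogenic and 364, 512 and 390 CPM in osteogenic libraries, and the groups overlapped (log2 fold change -0.59 ± 0.35, edgeR adjusted p = 0.346). Ctsl, the endopeptidase cathepsin L, measured 887, 401 and 455 against 386, 665 and 406 CPM. Its groups overlapped, and the log2 fold change was -0.26 ± 0.48 (edgeR adjusted p = 0.794).

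Ctso, a less studied cysteine cathepsin, measured 30.7, 20.2 and 25.1 CPM in untreated adipogenic and 30.6, 23.2 and 17.4 CPM in osteogenic libraries. Ctsc, the dipeptidyl peptidase that activates granule proteases of blood cells, had the lowest level per kb of the 10, at 4.42, 2.76 and 5.37 against 3.87, 3.61 and 1.95 CPM. Neither difference passed edgeR's test, with adjusted p of 0.886 for Ctso and 0.542 for Ctsc.

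Ctsk stood apart from the rest by its spread between libraries of one group. It measured 15.7, 0.996 and 2.40 CPM in untreated adipogenic libraries 4, 5 and 6, 14.2, 0.479 and 1.39 CPM in the same numbers with IFNγ, and 3.26, 1.09 and 15.6 CPM in osteogenic libraries. Library 4 was the highest in both adipogenic groups, and library 6 was the highest of the osteogenic ones. The highest library was 15.8, 29.5 and 14.3 times the lowest in the 3 groups, against at most 3.10 times for any of the other 9 genes. The osteogenic to untreated adipogenic log2 fold change of 0.07 ± 1.46 (edgeR adjusted p = 0.985) therefore has an error wide enough to hold a severalfold difference either way.

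Because cathepsin K is an osteoclast enzyme, and several cathepsins are abundant in macrophages, markers of those cells were read in the same libraries. The 10 osteoclast markers in the table summed to 33.4 to 54.6 CPM in untreated adipogenic, 26.7 to 37.0 in IFNγ-treated and 63.3 to 76.7 in osteogenic libraries, carried mainly by Nfatc1, Itgb3 and Tnfrsf11a. Itgb3 was called higher in osteogenic than in untreated adipogenic cells, and 0 to 1 markers were when 1 library was left out. Against treated adipogenic cells, Itgb3 and Nfatc1 were called higher and Tnfrsf11a lower. Of the defining markers, Acp5 had 6 counts in all 9 libraries together, Ocstamp 14 and Dcstamp 0. The 15 macrophage and blood cell markers summed to 15.7 to 31.7 CPM in untreated adipogenic, 14.7 to 20.8 in IFNγ-treated and 11.1 to 15.6 in osteogenic libraries. Cd68, with means of 10.3, 8.39 and 3.99 CPM, and Cd14, with 10.2, 7.96 and 4.799 CPM, made up most of it in the same order of groups, lower in osteogenic cells on average, with no call. The list as a whole had no common direction. Against untreated adipogenic cells, 4 of its 7 tested genes had a positive log2 fold change and 3 a negative one (median 0.01). Fcer1g, Csf1r, Laptm5 and Lyz2 averaged higher in osteogenic than in untreated adipogenic libraries. The pan-leukocyte gene Ptprc had 8 counts in all and Aif1 had 0. The 6 endothelial markers summed to 11.7 to 19.99 CPM in untreated adipogenic, 24.3 to 61.3 in IFNγ-treated and 2.51 to 3.08 in osteogenic libraries. Kdr was the highest of them (means of 11.97, 39.4 and 1.73 CPM), with Pecam1 at 20 counts in all and Emcn at 0. Kdr was called lower in osteogenic than in untreated adipogenic cells, and Kdr and Vwf lower than in treated ones. With IFNγ, Kdr was not called without the replicate block and was called higher with it. The part of these markers in the cathepsin differences was not tested.

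Cst3 was on the lower side in osteogenic cells without passing the test. It measured 483, 294 and 565 CPM in untreated adipogenic and 299, 386 and 299.9 CPM in osteogenic libraries. Untreated library 5 lay below every osteogenic library, so the groups overlapped, and the log2 fold change was -0.45 ± 0.25 (edgeR adjusted p = 0.323). Set against the sum of the 7 cysteine cathepsins, which it inhibits, Cst3 was 0.388, 0.331 and 0.678 times that sum per kb in untreated adipogenic libraries and 0.517, 0.485 and 0.460 times in osteogenic ones. The osteogenic ratios lay inside the adipogenic range.

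**Figure D3:**
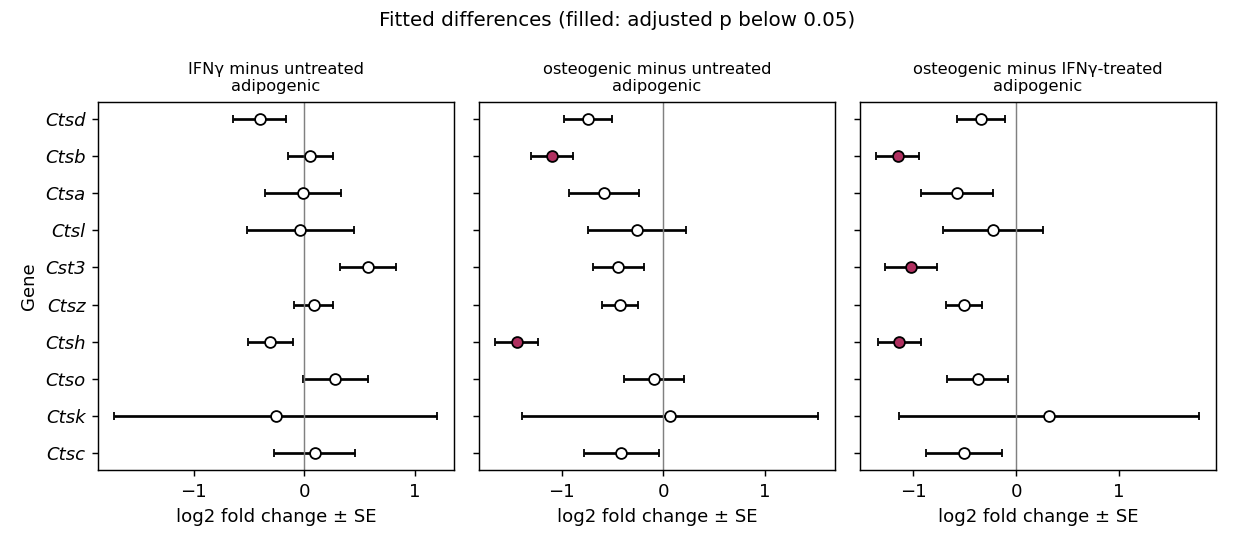
Fitted log2 fold change (points) and its SE (bars) of each gene in the 3 comparisons, filled where the edgeR adjusted p is under 0.05. Ctsb and Ctsh are filled in both osteogenic comparisons, at -1.09 and -1.44 against untreated and at -1.15 and -1.14 against IFNγ-treated adipogenic cells, and no point is filled for IFNγ.

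With IFNγ, none of the 10 genes passed edgeR's test, while 2.26% of all genes did and 2.01% were called higher. Cst3 alone had an unadjusted p under 0.05 with edgeR, DESeq2 and limma-voom, and neither DESeq2 nor limma-voom called a member after adjustment. The median log2 fold change of the 10 was 0.02, and that of all genes was -0.02. Untreated and treated libraries of the same number deviated together from their group means, and a fit with the number as a block called 16.6% of all genes and again none of the 10, with 4 (Ctsd, Cst3, Ctsk and Ctsh) at an unadjusted p under 0.05.

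Cst3 had the largest log2 fold change of the 10 in the fit without the block. Its level was 483, 294 and 565 CPM before and 590, 628 and 786 CPM after treatment in numbers 4, 5 and 6. All treated libraries were above all untreated ones, a pattern shared by 10.2% of all genes, and the ratios of treated to untreated were 1.22, 2.14 and 1.39. The log2 fold change was 0.58 ± 0.25 (edgeR adjusted p = 0.346), and with the block it was 0.60 ± 0.18 (adjusted p = 0.0806). Relative to the summed cysteine cathepsins, Cst3 was 0.433, 0.699 and 1.05 times that sum with IFNγ, higher than in the untreated library of the same number in each of the 3 pairs.

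Ctsd was lower with IFNγ in each pair by nearly the same factor. The treated libraries held 1426, 1714 and 1071 CPM against 1887, 2300 and 1385 untreated, ratios of 0.756, 0.745 and 0.773. The groups overlapped because untreated libraries alone differed by up to 1.66 times. The log2 fold change was -0.40 ± 0.24 (edgeR adjusted p = 0.513) without the block and -0.41 ± 0.11 (adjusted p = 0.0637) with it. A further fit, chosen after the data were seen, blocked only the adipogenic libraries within all 9 and called it lower (adjusted p = 0.0487).

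Ctsh and Ctsk were also lower in 3 of 3 pairs, as were 29.7% of all genes. The ratios of treated to untreated were 0.967, 0.801 and 0.697 for Ctsh and 0.899, 0.481 and 0.581 for Ctsk. Blocked adjusted p was 0.111 and 0.133. Cst3 was higher in 3 of 3 pairs, as were 26.9% of all genes.

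The other 6 genes differed in direction between pairs or by small ratios. Ctsb ratios were 1.10, 0.977 and 1.05, and Ctsz ratios were 1.09, 1.09 and 0.997. Ctsa measured 921, 524 and 439 CPM with IFNγ, ratios of 1.05, 1.23 and 0.737. Ctsl measured 982, 401 and 317 CPM, and Ctsz 378, 272 and 281 CPM. Ctso measured 20.04, 34.6 and 37.5 CPM, lower than untreated in number 4 and higher in the other pairs. Ctsc measured 3.28, 5.53 and 4.60 CPM, higher in number 5 alone. Library 4 was the highest of its group for Ctsa, Ctsk, Ctsl and Ctsz both before and after treatment, and library 5 was the highest in both for Ctsb, Ctsd and Ctsh.

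**Figure D4:**
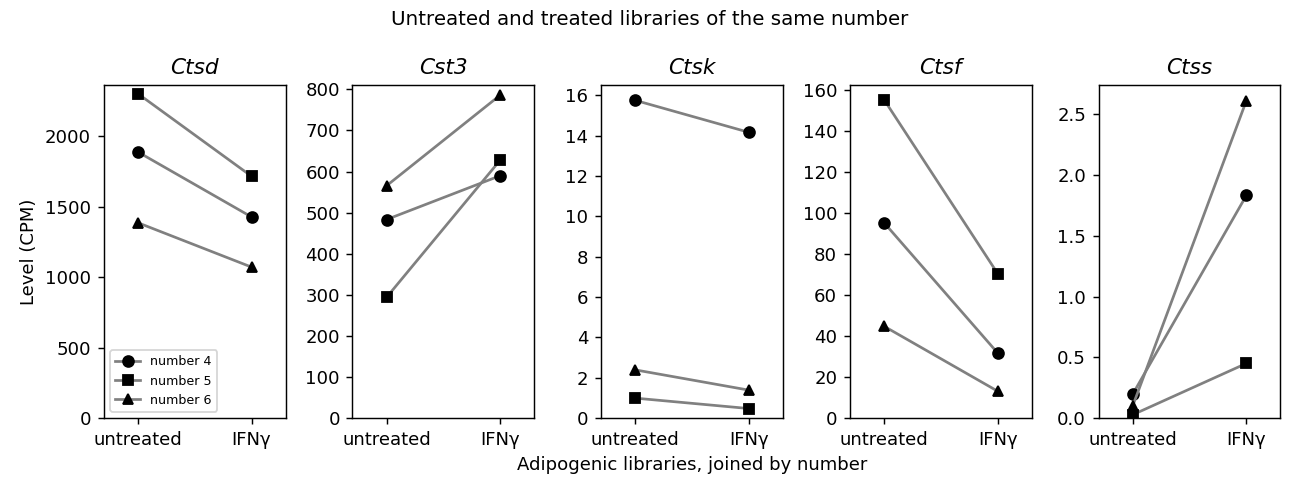
Level (CPM) of Ctsd, Cst3, Ctsk, Ctsf and Ctss in untreated and IFNγ-treated adipogenic libraries, with lines joining libraries of the same number. The treated value is 0.745 to 0.773 times the untreated one for Ctsd and 1.22 to 2.14 times for Cst3.

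Osteogenic cells were also set against the IFNγ-treated adipogenic libraries, a comparison that shares its osteogenic libraries with the first and its treated libraries with the second, so it adds no independent evidence to either. Ctsb, Ctsh and Cst3, 3 of 10, were lower in osteogenic cells, where 9.2% of all genes were called lower. Their log2 fold changes were -1.15 ± 0.21 (edgeR adjusted p = 0.0084), -1.14 ± 0.21 (0.0093) and -1.02 ± 0.25 (0.0286). In folds, Ctsb was 2.22-fold, Ctsh 2.20-fold and Cst3 2.03-fold lower.

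Ctsb, Ctsh, Ctsz and Cst3 did not overlap between these groups, a pattern of 19.7% of all genes. Ctsz had a log2 fold change of -0.51 ± 0.17 that edgeR did not call (adjusted p = 0.0830) and DESeq2 did (0.0267). Ctsd, at -0.34 ± 0.23 (edgeR adjusted p = 0.367), overlapped: treated library 6 at 1071 CPM lay within the osteogenic range. The median of the 10 was -0.51, and that of all genes was -0.03. The calls of Ctsb and Ctsh held without each of the 6 libraries in turn, whereas that of Cst3 held only without IFNγ replicate 4. It was lost without IFNγ replicate 5 (adjusted p = 0.0562) or 6 (0.0882) and without osteogenic replicate 4 (0.09998), 5 (0.0567) or 6 (0.0991).

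Likeness of pattern was described by the root mean square difference of centred log2 CPM over the 9 libraries, among 9709 genes that average at least 10 CPM. Nearest to Ctsb were Vps11 (0.128), a subunit of the complexes that tether vesicles to the lysosome, and Ccdc86 (0.146). Nearest to Ctsh were Laptm4b (0.128), a lysosomal membrane protein, and Prps2 (0.190), and nearest to Cst3 were Pdk3 and 2610002M06Rik (both 0.176).

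Among the other cathepsins, 5 of the 14 looked for were in the table and 3 (Ctsf, Ctss and Ctsw) passed the filter. Ctss, cathepsin S, which trims the invariant chain of MHC class II, had only 7, 1 and 4 counts in untreated adipogenic libraries, 62, 16 and 92 with IFNγ, and 0, 8 and 3 in osteogenic ones. The count was higher with IFNγ in each of the 3 pairs, at no more than 2.61 CPM. From pooled counts the treated to untreated ratio was 15.0, and counting error alone gave it a 95% interval of 8.37 to 29.6. The log2 fold change of 3.87 ± 1.11 was not called by edgeR (adjusted p = 0.146), but it did with the block (0.00726) and with DESeq2 (0.0190).

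Ctsf, cathepsin F, measured 95.3, 155 and 44.8 CPM untreated and 31.8, 70.5 and 13.2 CPM with IFNγ, a lower level in each pair. Its log2 fold change was -1.36 ± 0.61 (edgeR adjusted p = 0.366) without the block and -1.51 ± 0.14 (adjusted p = 0.00576) with it. In osteogenic libraries it measured 39.3, 46.7 and 33.1 CPM, which overlapped the untreated range at one library of each group (edgeR adjusted p = 0.239). Ctsw, a cathepsin of cytotoxic lymphocytes, had 174 counts in the osteogenic libraries against 12 in the treated and 32 in the untreated adipogenic ones. Its call against treated cells (log2 fold change 4.03 ± 1.07, edgeR adjusted p = 0.0379) was lost without any 1 of the 6 libraries. Against untreated cells it was not called (log2 fold change 2.73 ± 0.99, edgeR adjusted p = 0.147).

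Of the other cystatins and stefins, 8 of 17 were in the table and 4 passed the filter. Cstb, the intracellular inhibitor stefin B, measured 138, 221 and 212 CPM in untreated adipogenic, 148, 182 and 151 CPM in treated and 92.6, 90.4 and 86.3 CPM in osteogenic libraries. The osteogenic libraries were close together and below all 6 adipogenic ones. Cstb was lower in osteogenic than in untreated adipogenic cells (log2 fold change -1.08 ± 0.19, edgeR adjusted p = 0.0196) and than in treated ones (-0.84 ± 0.19, 0.0193). The first call was lost without adipogenic replicate 6 (0.0715) or osteogenic replicate 4 (0.0793), 5 (0.0790) or 6 (0.0813), and the second without IFNγ replicate 5 (0.0584) or osteogenic replicate 4 (0.0651), 5 (0.0712) or 6 (0.0679). Cst6 ranged from 0.38 to 41.6 CPM, highest in library 4 of both adipogenic groups, and neither it, Kng1 nor Fetub was called in any comparison.

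The lysosomal genes around the cathepsins were read as lists, which describe the setting of the 10 genes. In osteogenic against untreated adipogenic cells, where 3.19% of all genes were called lower, no gene of the 6 lysosomal lists was called higher. Of the subunits of the vacuolar proton pump, which acidifies the lysosome and so allows cathepsins to work, 12 of 17 tested were lower (median log2 fold change -0.85). Tcirg1 averaged 285 ± 40.6 CPM untreated and 119 ± 12.6 osteogenic (SD, n = 3), Atp6v0d1 258 and 142, and Atp6v1h 143 and 79.8. Between 2 and 12 subunits were still called when 1 library was left out, and all 17 had a negative fold change with all 9 libraries.

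Of the lysosomal membrane proteins 8 of 20 were lower (median -0.79), including Lamp1, Lamp2 (935 to 488 CPM), the cystine exporter Ctns (74.2 to 26.7 CPM) and Tmem192 (45.7 to 16.8 CPM). Of the glycosidases, sulfatases and lipid hydrolases 8 of 32 were lower (median -0.70), including Gla (43.6 to 9.44 CPM) and Psap, the saposin precursor (3165 to 1747 CPM). Leaving out 1 library gave 1 to 7 membrane proteins and 2 to 6 hydrolases. Of the other lysosomal peptidases only Dpp7 of 8 was lower (median -0.40), and it was lost without any 1 of the 6 libraries.

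Of the sorting genes that carry cathepsin precursors to the lysosome, Ap3d1 and Gga2 were lower among 14 (median -0.37). The mannose 6-phosphate receptors themselves were not called: M6pr averaged 113 and 119 CPM (edgeR adjusted p = 0.766) and Igf2r 546 and 382 CPM (0.347). Of 11 genes of the TFEB family and its regulators, 4 were lower (median -0.40): Rragd (6.18 to 0.448 CPM), Rragc, Flcn and Fnip1, which act in nutrient signalling to TFEB. The factors Tfeb (8.95 and 9.71 CPM, adjusted p = 0.879), Tfe3 (86.5 and 77.7, 0.392) and Mitf (5.57 and 4.21, 0.386) were not called by edgeR. Leaving out 1 library gave 0 to 2 sorting genes and 2 to 4 genes of the TFEB list.

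**Figure D5:**
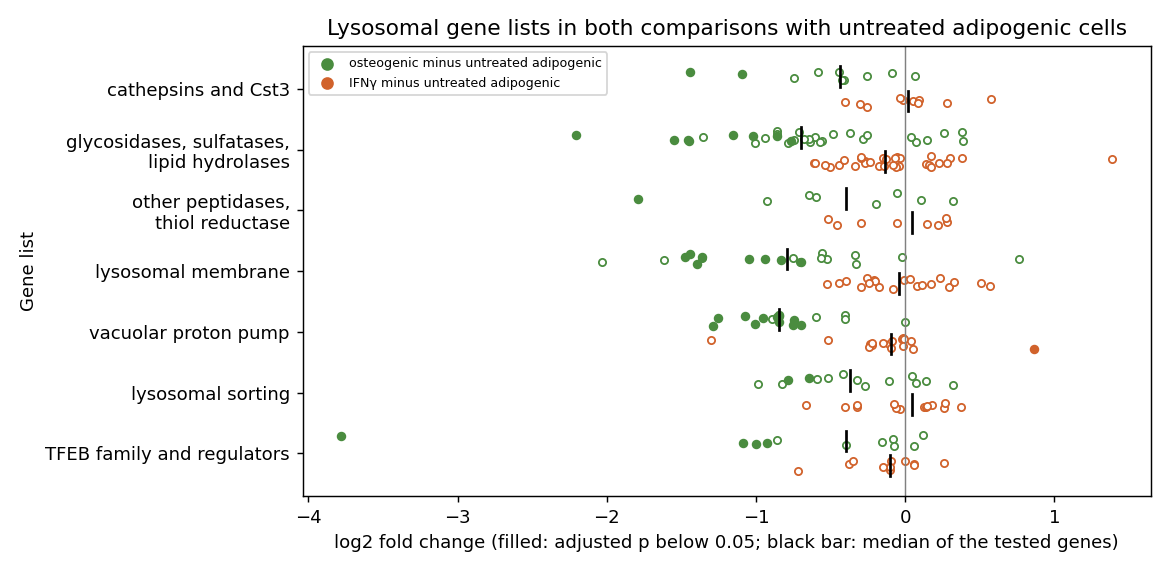
Log2 fold change of every tested gene of the lysosomal lists (points, filled where the edgeR adjusted p is under 0.05) with the median of each list (black bar), for osteogenic and for IFNγ-treated against untreated adipogenic cells. The osteogenic medians lie at -0.85 for the proton pump and -0.44 for the 10 members, and the IFNγ medians lie near 0.

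Against the treated adipogenic libraries, where 9.2% of all genes were called lower, 12 of 17 pump subunits, 8 of 20 membrane proteins, 9 of 32 hydrolases, 2 of 8 peptidases, 4 of 14 sorting genes and 5 of 11 genes of the TFEB list were lower in osteogenic cells, and Ids alone was higher. Leaving out 1 library gave 6 to 12 pump subunits, 4 to 8 membrane proteins, 5 to 8 hydrolases, 0 to 1 peptidases, 1 to 3 sorting genes and 4 to 5 genes of the TFEB list, and Ids was called in 1 of those 6 fits, without IFNγ replicate 5. With IFNγ itself only Tcirg1 of these lists was called, from 285 to 518 CPM (log2 fold change 0.86 ± 0.17, edgeR adjusted p = 0.0377), and that call held only without IFNγ replicate 6 (0.0412), with adjusted p of 0.0514 to 0.134 without each of the other 5 libraries. With the block, 13 of 102 genes of the 6 lists (12.7%) were called, against 16.6% of all genes: Tcirg1 and Gla higher and Atp6v0d1, Atp6v0a1, Sgsh, Arsa, Fuca1, Ids, Tpp1, Gga1, Sorl1, Tfeb and Rraga lower.

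The partners of cathepsins in MHC class II processing had a median log2 fold change of 3.87 with IFNγ, against -0.02 for all genes. Of 9 genes, 6 rose: the transactivator Ciita (0.205 to 138 CPM), the invariant chain Cd74 (2.52 to 815 CPM), H2-Aa, H2-Ab1, H2-DMa and H2-DMb1. In each of the 6 fits that left out 1 library, 6 of the 9 genes were called. Legumain (Lgmn, 157 and 174 CPM, edgeR adjusted p = 0.748) and the thiol reductase Ifi30 (40.3 and 28.1 CPM, 0.771), both lysosomal enzymes of the same route, were not called. Of the 9 tested genes of collagen uptake and matrix breakdown, the fit without the block called none with IFNγ. With the block, 3 (Timp2, Plau and Mmp2) were called lower, where 16.6% of all genes were called in either direction. None was called between osteogenic and untreated adipogenic cells. Mmp14, Timp2 and Plau, 3 of the 9, were higher in osteogenic than in treated adipogenic cells. In that comparison 1136 of the 15098 genes tested were called higher. Leaving out 1 library gave 2 to 4 genes of this list called higher there.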

How the data were processed

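The values are whole-number read counts per gene, deposited by the authors as 1 table of 24186 genes for all 9 libraries, with Ensembl identifiers, gene names and exonic lengths, per the file headers. CASAVA 1.8.0, bedtools 2.11 and the build mm9 are named per the submitters' processing notes. The library kit marks strand, per the labels' protocols. The aligner, the counting rule and its strand setting were not given in the sources used here, so reads of overlapping genes could be split in an unknown way.

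The 10 genes, the lists and the tests were chosen with earlier results of these data known. Genes with low counts were removed by edgeR's filterByExpr (15098 of 24186 tested), libraries were scaled by TMM, and 1 robust quasi-likelihood model over all 9 libraries gave the 3 comparisons (R 4.3.3, edgeR 4.0.16), with Benjamini-Hochberg adjustment over all genes tested and a threshold of 0.05. The SE is the absolute log2 fold change divided by the square root of F. CPM are values of edgeR's cpm function on TMM-scaled library sizes, and 3 counts correspond to 0.0749 to 0.113 CPM. An exact permutation test of 3 against 3 libraries cannot give a p under 0.1 and was not used. Alternatives used DESeq2 1.42.0, limma-voom (limma 3.58.1), other scalings, no filter, only the libraries compared, replicate blocks, and each library left out. The code was tested on simulated data.

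Whether numbers pair libraries was checked by correlating deviations from group means: untreated and treated adipogenic libraries of the same number gave 0.778, 0.769 and 0.779, whereas osteogenic libraries gave -0.0546 to 0.0552 with the adipogenic libraries of their number. The numbers were therefore taken to pair the IFNγ comparison and not the osteogenic ones. No 2 libraries of a group agreed within sampling noise.

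Named genes were the 10 members, every other cathepsin, cystatin or stefin past the filter, up to 4 genes with the smallest adjusted p of each other list and a mean of at least 1 CPM, a few genes fixed by name, and for each member with a call the 2 genes of the most similar pattern. Dpp7, Lamp1 and the names of blocked calls complete a count and were added after their values were seen. Symbols not matched in the table are not analysed here. Promoter windows came from RefSeq on GRCm38.p6 and exons from GENCODE M21 on the same assembly; no mm9 coordinates were used. Some results of the lists and of the motif search are not reported here.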

Additional observations from a re-analysis of the deposited data

How the results depend on the processing

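With all scalings tried, limma-voom, no filter, and only the libraries compared, the members called were the same genes as reported for each comparison. The counts of genes called moved further, from 341 for IFNγ, 780 for osteogenic against untreated and 2525 for osteogenic against treated adipogenic cells. DESeq2 called 1068, 2226 and 3830 genes, and fitting only the 6 libraries compared gave 178 for IFNγ. In the replicate block of the 6 libraries compared, the counts were 2446, 23 and 1257 genes. In that block no member was called against untreated adipogenic cells (0), and 1, Ctsh, was called against treated ones; Ctsb then had adjusted p of 0.141 and 0.0545, Ctsh 0.0917 against untreated and Cst3 0.0546 against treated cells. The osteogenic numbers did not pair with the adipogenic ones, so these block results describe libraries that share only a number. A block over all 9 libraries gave 1244 genes for osteogenic against untreated cells. The block of the adipogenic libraries alone, chosen after seeing the data, gave 1631 genes and 1 member, Ctsd, for IFNγ. Leaving out 1 library gave 194 to 278 genes for IFNγ, 159 to 475 for osteogenic against untreated and 1312 to 1979 for osteogenic against treated cells, with 0 to 0, 0 to 2 and 2 to 3 members called. Such fits hold fewer samples, and 3 libraries a group limit every call here.

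Signs turned only for members and relatives in comparisons where they were not called, and the cause was not tested. Leaving out 1 library in turn gave these ranges of the log2 fold change. For IFNγ they were -0.38 to 0.30 for Ctsa, -0.075 to 0.19 for Ctsb, -0.13 to 0.32 for Ctsc, -2.76 to 1.63 for Ctsk, -0.68 to 0.40 for Ctsl, -0.068 to 0.22 for Ctsz, -2.59 to 3.02 for Cst6 and -2.21 to 0.73 for Kng1. For osteogenic against untreated adipogenic cells they were -1.54 to 1.97 for Ctsk, -0.55 to 0.18 for Ctsl, -0.32 to 0.091 for Ctso and -1.26 to 0.87 for Ctss. Against treated cells they were -1.29 to 2.82 for Ctsk, -0.51 to 0.42 for Ctsl, -0.39 to 0.84 for Ctsf and -1.46 to 0.081 for Fetub. Other settings turned Cst6 with IFNγ to -0.11 (limma-voom) and -0.012 (block of the adipogenic libraries), and Ctss in osteogenic against untreated cells to -0.43 (limma-voom). The ends of the Ctsk range for IFNγ came without adipogenic replicate 4 (1.63) and without IFNγ replicate 4 (-2.76).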
